A study of Mus musculus with 4 samples.

Results

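The nuclear-encoded subunits of the mitochondrial respiratory chain and ATP synthase were examined in the dorsal hippocampus of female mice on a control or a 20-fold iodine intake. Members were the genes whose symbols begin with the stems of the subunits of complexes I to V (Nduf with a, b, c, s or v and a digit, Sdha to Sdhd, Uqcr, Cox4 to Cox8, and Atp5), without pseudogenes. Of 87 protein-coding genes with such a symbol in the gene table, 83 had a probe, out of 22911 genes named on the array. They comprised 35 genes of complex I, 4 of complex II, 8 of complex III, 19 of complex IV and 17 of complex V. Cox5b, Ndufb1, Ndufb4b and Ndufb4c were not analysed here. Of the 83 members, 82 were well above background on all 4 arrays and were tested. The remaining member, the testis isoform Cox8c, was well above background on 0 of 4 arrays.

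The study asks about excess iodine and brain development. RNA was taken after a series of behavioural tests, and 2 arrays carried control samples and 2 carried samples of the 20-fold iodine group, in each case labelled replicates 2 and 3. Strain, age, the length of iodine feeding and the form of the iodine are not given in the sources used here. Whether the replicates came from different animals is not stated, and p-values therefore reflect only how far these samples differ, possibly for technical reasons.

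The respiratory chain passes electrons from NADH (complex I) and succinate (complex II) through ubiquinone and complex III to cytochrome c and, at complex IV, to oxygen. Complexes I, III and IV pump protons across the inner mitochondrial membrane, and ATP synthase (complex V) uses the gradient to make ATP. Neurons depend on this supply for ion pumping and synaptic transmission, and thyroid hormone, of which iodine is a component, is known as a regulator of mitochondrial content in many tissues. Most subunits are encoded in the nucleus, and nuclear respiratory factor 1 (NRF1), ETS-family factors such as GABP, and YY1 are known regulators of many of their promoters.

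Promoters of the members carried the letters of these factors more often than promoters at large. RefSeq windows (GRCm38.p6) from 250 bases before to 50 bases after the annotated start were searched on both strands. A window was held for 67 of the 83 members and for 27025 genes in all. The NRF1 core (GCGC, then A and any base N, then GCGC again) stood in 25.4% of the members (17 of 67) and 5.19% of all genes. For the ETS core CCGGAA the shares were 38.8% and 16.7%, and for the YY1 core AAGATGGC 14.9% and 3.19%. Complexes were uneven in this. The NRF1 core stood in 7.69% of complex IV (1 of 13) and in 20.0% (complex III) to 66.7% (complex II, 2 of 3) of the others. The YY1 core matched only in complexes I (22.6%) and V (20.0%). The TATA box letters TATAAA stood in 11.9% of the members and 15.7% of all genes. The E-box CAGCTG, a site type of muscle and neuronal bHLH factors, stood in 8.96% and 18.3%. Matches of different motifs were allowed to overlap, and a match is a description of letters, not a site in use.

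Stretches of 200 bases that end just before the start are shown for 5 members, with matches to these motifs in capitals. Sdha and Cox6a1 are shown for their repeated NRF1 cores, Atp5md because it had the smallest unadjusted p in complex V, and Cox8a and Cox8b as the common and the striated muscle isoform of one subunit. They lie at chr13:74350241-74350440 (Sdha), chr5:115348959-115349158 (Cox6a1), chr19:47090648-47090847 (Atp5md), chr19:7217617-7217816 (Cox8a) and chr7:140900447-140900646 (Cox8b), in each case on the minus strand and printed 5′ to 3′ along the gene.
Sdha: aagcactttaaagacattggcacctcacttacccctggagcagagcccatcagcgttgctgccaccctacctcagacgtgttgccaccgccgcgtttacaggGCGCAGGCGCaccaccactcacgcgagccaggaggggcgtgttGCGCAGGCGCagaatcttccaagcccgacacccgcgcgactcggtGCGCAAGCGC
Cox6a1: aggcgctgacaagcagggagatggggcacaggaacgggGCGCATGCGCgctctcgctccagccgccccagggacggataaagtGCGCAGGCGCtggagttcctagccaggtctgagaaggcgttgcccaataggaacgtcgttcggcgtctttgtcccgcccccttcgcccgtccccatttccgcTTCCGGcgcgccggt
Atp5md: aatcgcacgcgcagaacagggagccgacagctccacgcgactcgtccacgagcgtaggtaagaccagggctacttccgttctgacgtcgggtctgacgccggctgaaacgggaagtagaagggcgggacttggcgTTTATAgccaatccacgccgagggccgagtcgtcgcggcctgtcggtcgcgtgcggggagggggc
Cox8a: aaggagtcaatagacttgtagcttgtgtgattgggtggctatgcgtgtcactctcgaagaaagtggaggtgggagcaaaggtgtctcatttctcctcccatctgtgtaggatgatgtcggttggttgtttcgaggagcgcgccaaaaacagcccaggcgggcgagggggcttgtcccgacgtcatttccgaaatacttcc
Cox8b: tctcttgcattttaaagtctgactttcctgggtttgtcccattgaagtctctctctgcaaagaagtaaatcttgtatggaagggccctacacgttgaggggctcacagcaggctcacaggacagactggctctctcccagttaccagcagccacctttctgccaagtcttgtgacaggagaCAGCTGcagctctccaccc
Sdha held 3 NRF1 cores, at 98, 55 and 10 bases before the start (first base of each match), and Cox6a1 held 2, at 162 and 117 bases, with an ETS core at 15 bases. Atp5md held a TATA match on the opposite strand at 65 bases, and Cox8b an E-box at 19 bases. No match of the 5 motifs fell wholly inside the printed bases of Cox8a. The searched window runs on past the printed bases, and there Cox8a held ETS cores at 27 and 34 bases after the start and another across the start. In that part Atp5md held an ETS core at 4 bases, and Cox8b a TATA match at 5 bases and an E-box at 17 bases.

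The arrays were alike in quality. On each, 37535 to 37921 of 56605 probes exceeded background clearly, 0 spots were saturated, and repeated spots varied by 2.25 to 3.17% (median coefficient of variation). All 4 arrays lay on 1 slide and 1 scan, with controls in positions 1 and 2 and iodine samples in positions 3 and 4, so position and group cannot be told apart. All 12 markers of hippocampal neurons, the labelled tissue, were kept as above background. Markers of neighbouring tissue differed between arrays. Summed scaled signals of 8 choroid plexus markers were 25041 and 22191 on the control arrays against 8183 and 41486 on the iodine arrays replicates 2 and 3. Those of 8 meningeal markers were 35651 and 39587 on the control arrays against 15537 and 40946 on the iodine arrays. Sums of 8 endothelial and pericyte markers were 2114 and 2400 on the control arrays against 2651 and 2820 on the iodine arrays, with 6 of 8 markers higher. Those of 8 astrocyte markers were 39011 and 38722 on the control arrays against 36531 and 34334 on the iodine arrays, with 4 markers higher and 4 lower. These sums are of linear signals, so the brightest marker weighs most. Among astrocyte markers that was Aldoc, at log2 14.95 and 14.91 on the control arrays against 14.80 and 14.70 on the iodine arrays. The other astrocyte markers lay at 11.33 or below. Ttr likewise made up most of the choroid plexus sums and Ptgds most of the meningeal sums. All markers in these 4 lists were kept as above background. Sums of 8 thalamus and habenula markers were 1703 and 1523 on the control arrays against 1448 and 2395 on the iodine arrays, with 6 of 8 markers higher. Sums of the 5 kept pituitary markers (Pou1f1 and Tshb were not kept) were 600 and 1164 on the control arrays against 2330 and 1728 on the iodine arrays. In bulk tissue, fewer cells of a type and less RNA per cell cannot be told apart, and the part of these markers in the results below was not tested.

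Levels of respiratory chain transcripts in the 20-fold iodine group lay close to those of controls. Differences are given as log2 of 20-fold iodine over control, on signals scaled to each array's 75th percentile. The median over the 82 members was -0.046, a ratio of 0.969, against -0.014 over all 16794 genes tested. For 65 members (79.3%) the difference was within 0.1 of 0 in either direction, against 52.7% of all genes. No member passed the adjusted threshold by limma (smallest adjusted p = 0.668), as for 0% of all genes. On simulated data the same test recovered 0% of genes changed by 0.5 log2 units, so no call could be expected for smaller differences. One member, Cox6a2, had an unadjusted p under 0.05 (1 of 82, or 1.22%), against 7.35% of all genes. Of all genes 3.87% were higher and 3.48% lower by that measure. Most members are bright, 66 of 82 lying among the 1680 brightest genes, where 3.75% had such a p and 36.8% did not overlap between the groups, with a median difference of -0.016. Within these small differences the sign was uneven, with 65 members lower in iodine and 17 higher. That is 79.3% lower, against 54.4% of all genes.

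Both iodine arrays lay below both controls in 36 members (43.9%), a pattern that 21.9% of all genes showed. In 7 members both lay above, or 8.54%, against 17.9%. The groups thus did not overlap in 43 of 82 members, and in 39.9% of all genes. With 2 arrays a group, an exact permutation test of a single gene cannot reach 0.05. With arrays centred instead on the median over the probes detected throughout, 50 members lay lower and 3 higher without overlap, against 27.0% and 13.9% of all genes. By array, the members' median deviations from each gene's mean were 0.033 and 0.020 in control replicates 2 and 3, and -0.009 and -0.040 in iodine replicates 2 and 3. The iodine arrays thus lay farther from each other than iodine replicate 2 lay from control replicate 3. Over all genes iodine replicate 3 was also the lowest array, at -0.019, with the other 3 at 0.005 to 0.007.

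**Figure D1:**
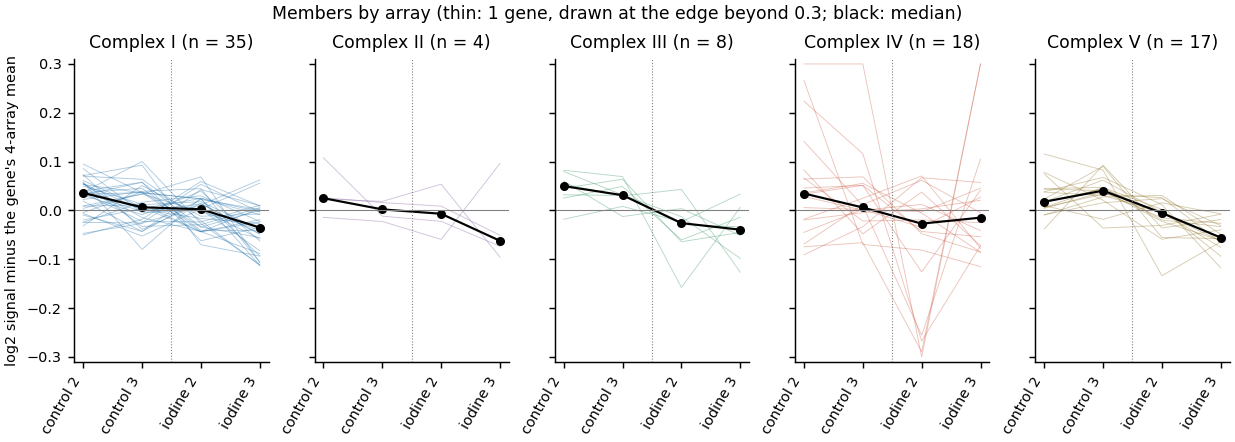
Log2 signal of each member minus its mean over 4 arrays, by complex; thin lines join the 4 arrays of a gene, black points are the medians, and the dotted line separates control from 20-fold iodine arrays. Medians stay between -0.062 and 0.050 in all 5 complexes, and single genes of complex IV leave the plotted range of 0.3.

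Complex I, which oxidises NADH, had a median difference of -0.038 over 35 subunits, 26 lower and 9 higher. Its 7 catalytic core subunits, which carry the flavin and the iron-sulphur clusters, had a median of -0.034. Ndufs1, the largest of them, had log2 signals of 11.83 and 11.77 on the control arrays against 11.69 and 11.65 on the iodine arrays. The difference was -0.13 ± 0.073 (SE, n = 2 per group). Ndufv1, which binds NADH, had 12.80 and 12.81 on the control arrays against 12.82 and 12.67 on the iodine arrays, so that the groups overlapped. In the core subunit Ndufs8 both iodine arrays lay above the controls, with a difference of 0.050.

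Accessory subunits surround this core and serve assembly and stability. The 12 Ndufa subunits had a median of -0.034 and the 10 Ndufb subunits, which lie in the membrane arm, -0.053. Ndufa2, with the smallest unadjusted p in the complex (adjusted p = 0.699 by limma), stood at 12.81 and 12.83 on the control arrays against 12.67 and 12.64 on the iodine arrays, a difference of -0.16 ± 0.070 (SE). Ndufb4 had 12.74 and 12.80 on the control arrays against 12.68 and 12.59 on the iodine arrays. Ndufb3 had 11.81 and 11.80 on the control arrays against 11.72 and 11.62 on the iodine arrays. The groups did not overlap in these 3 genes, and the 95% interval of each difference spanned 0. In all, 13 subunits of complex I (37.1%) lay lower without overlap, against 21.9% of all genes, and 5 (14.3%) higher, against 17.9%. Among the latter, besides Ndufs8, were Ndufa10, Ndufb7 and Ndufv3, at 0.068, 0.059 and 0.053.

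**Figure D2:**
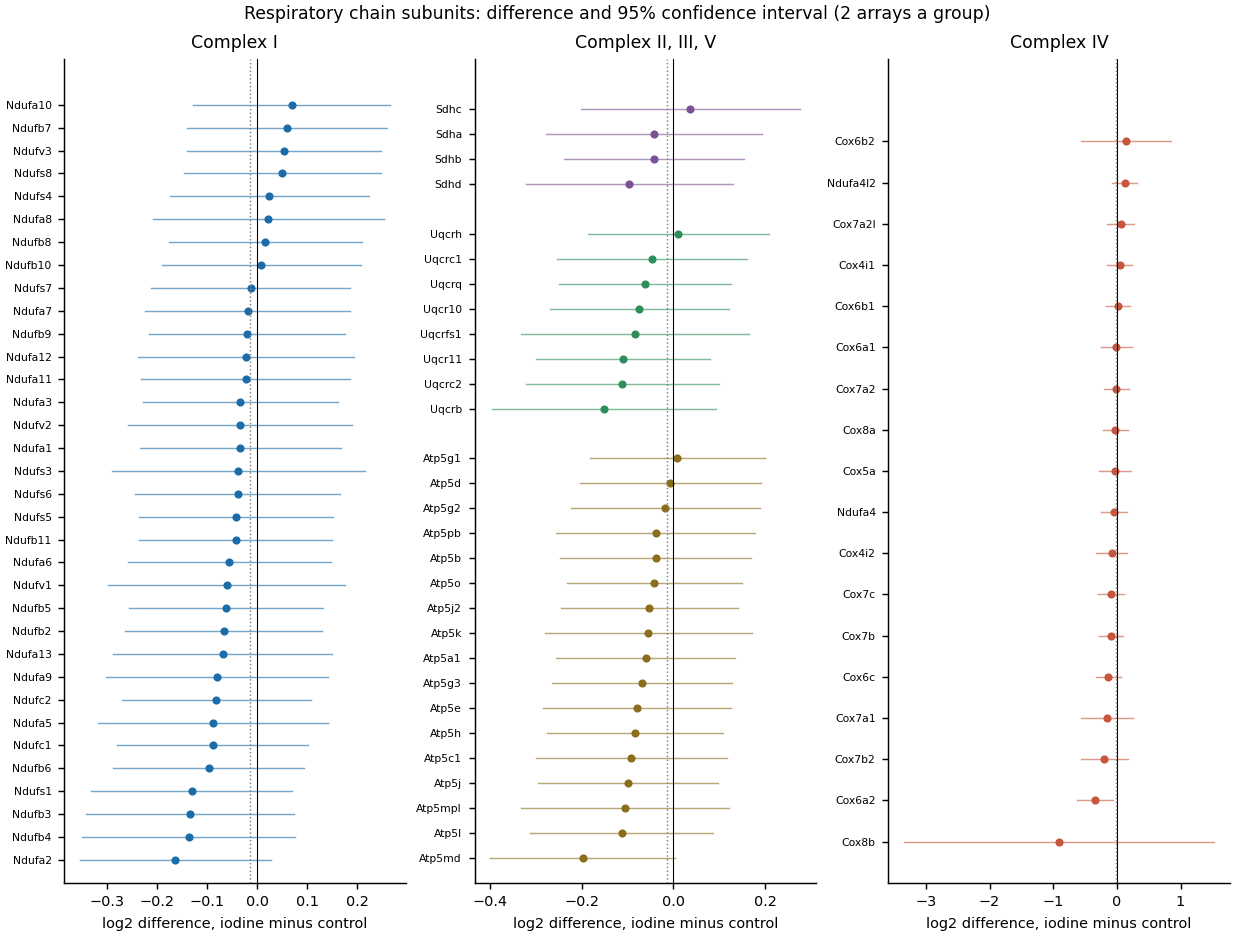
Log2 difference (20-fold iodine minus control) of the tested members except 1 of complex I, each with its 95% confidence interval by limma; the dotted line is the median of all genes, and the panels differ in scale. Cox6a2 is the only interval that excludes 0, from -0.62 to -0.056, before adjustment, and that of Cox8b spans -3.35 to 1.53.

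Complex II, succinate dehydrogenase, has 4 subunits, all encoded in the nucleus, and is shared with the citric acid cycle. Its median was -0.042. The flavoprotein Sdha had 11.48 and 11.48 on the control arrays against 11.51 and 11.36 on the iodine arrays. The iron-sulphur subunit Sdhb had 12.82 and 12.81 on the control arrays against 12.80 and 12.74 on the iodine arrays. Both catalytic subunits differed by -0.042, less than their SE of 0.086 and 0.072. Of the membrane anchors, Sdhd differed by -0.096 ± 0.082 (SE) and Sdhc by 0.037 ± 0.088. The groups overlapped in Sdha and Sdhc.

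Complex III, which passes electrons from ubiquinol to cytochrome c, had the lowest median of the 5 complexes, -0.079, with 7 of its 8 members lower in iodine. Its subunit Cyc1 (cytochrome c1), whose symbol the rule does not match, was not among them. Cyc1 differed by 0.068 ± 0.082 (SE), and the groups overlapped. The difference between complexes was not tested, and their order was not stable. Without iodine replicate 2 the median of complex III was -0.072, against -0.0945 in complex II and -0.086 in complex V. Uqcrb, a small subunit near the quinone site, had 12.08 and 12.07 on the control arrays against 11.84 and 12.01 on the iodine arrays, a difference of -0.15 ± 0.089 (SE). It was -0.070 without iodine replicate 2 and -0.23 without iodine replicate 3. A second probe of Uqcrb gave -0.14. Uqcr11 had 13.25 and 13.27 on the control arrays against 13.14 and 13.16 on the iodine arrays. Among the larger subunits, Uqcrc2 differed by -0.11 ± 0.077, Uqcrc1 by -0.048 ± 0.076 and the Rieske iron-sulphur protein Uqcrfs1 by -0.084 ± 0.091. Uqcr10 differed by -0.074 ± 0.071, but its second probe gave 0.022. In all, 5 subunits (62.5%) lay lower without overlap, against 21.9% of all genes, and 0 higher, against 17.9%.

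Complex IV, cytochrome c oxidase, had a median of -0.040 over 18 tested members, 13 lower and 5 higher. Its 10 common subunits had a median of -0.032, from -0.13 to 0.042. Cox4i1, a large regulatory subunit, had 14.08 and 14.12 on the control arrays against 14.12 and 14.17 on the iodine arrays, with overlap, and Cox5a differed by -0.035 ± 0.091 (SE). Cox6c had 13.47 and 13.48 on the control arrays against 13.36 and 13.32 on the iodine arrays, a difference of -0.13 ± 0.070 without overlap. Ndufa4, first assigned to complex I and now counted with complex IV, differed by -0.045 ± 0.075. Its hypoxia-inducible relative Ndufa4l2 had 6.47 and 6.53 on the control arrays against 6.63 and 6.62 on the iodine arrays, a difference of 0.12 ± 0.072. Cox7a2l, a protein of supercomplex assembly, differed by 0.057 ± 0.078. In all, 5 members of complex IV (27.8%) lay lower without overlap, against 21.9% of all genes, and 2 (11.1%) higher, against 17.9%.

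Several subunits of complex IV come in a common isoform and in one typical of striated muscle (Cox6a2, Cox7a1, Cox8b), of lung and vessel walls (Cox4i2) or of testis (Cox6b2, Cox7b2, Cox8c). Of their common partners, Cox6a1, Cox7a2, Cox8a and Cox6b1 differed by -0.007, -0.0075, -0.029 and 0.024. The partners Cox7b and Cox4i1 differed by -0.097 and 0.0425. Among these partners the groups did not overlap in Cox7b, which was lower in iodine, and in Cox6b1, which was higher. The 6 tissue isoforms tested had a median of -0.17, from -0.91 to 0.14, and a median SE of 0.14 against 0.072 for the common subunits. Cox6a2 had the smallest unadjusted p of all members. Its log2 signals were 9.04 and 8.93 on the control arrays against 8.55 and 8.74 on the iodine arrays, a difference of -0.34 ± 0.10 (SE, unadjusted p = 0.029 by limma, adjusted p = 0.668), or a ratio of 0.790. Without iodine replicate 2 it was -0.24. Sums of the 6 kept striated muscle markers were 951 and 935 on the control arrays against 994 and 994 on the iodine arrays, with Ckm and Mb not kept as above background. Their part in the level of Cox6a2 was not tested.

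Cox8b was the most variable member, with log2 signals of 7.61 and 7.55 on the control arrays against 5.39 and 7.95 on the iodine arrays replicates 2 and 3. A single array therefore set its difference of -0.91 ± 0.89 (SE), which was 0.37 without iodine replicate 2. The order of the 4 arrays was the same as that of the summed choroid plexus markers, lowest in iodine replicate 2 and highest in iodine replicate 3. Cox6b2 had 6.72 and 6.72 on the control arrays against 6.50 and 7.22 on the iodine arrays, also with the lowest and the highest signal in these arrays. Cox7a1 had 7.87 and 7.74 on the control arrays against 7.48 and 7.84 on the iodine arrays, and its difference of -0.15 ± 0.15 was 0.029 without iodine replicate 2. Cox4i2 was likewise lowest in iodine replicate 2, at 6.73 against 6.89 to 6.91 on the other arrays. Cox7b2 differed by -0.20 ± 0.14, with 5.97 and 5.64 on the control arrays against 5.62 and 5.59 on the iodine arrays, and by -0.029 without control replicate 2. Of the common partners Cox6a1, Cox7a2, Cox8a and Cox6b1, Cox6a1 varied most, from 15.27 to 15.42 over the 4 arrays.

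**Figure D3:**
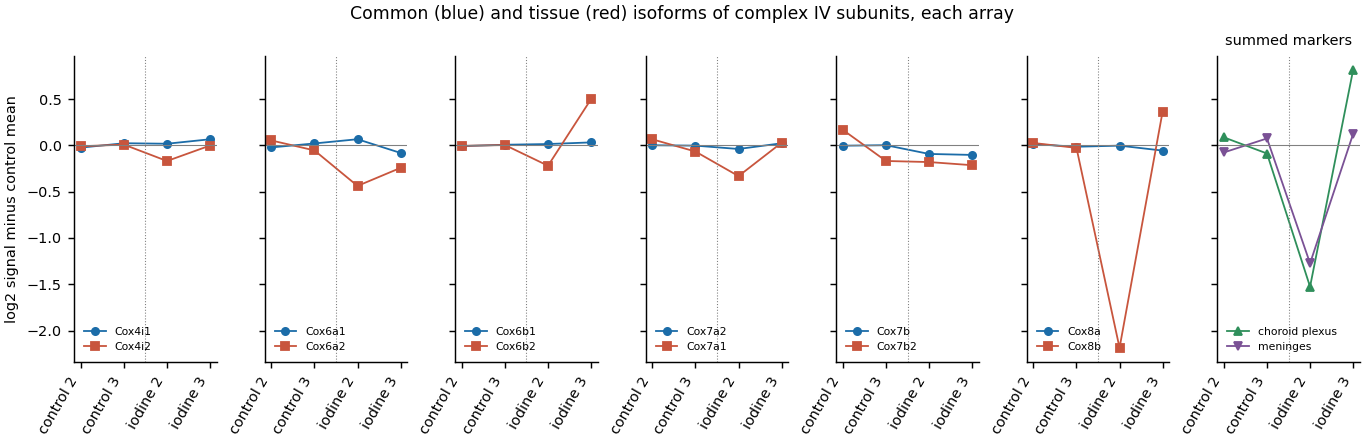
Log2 signal of common (blue circles) and tissue (red squares) isoforms of 6 complex IV subunits on each array, minus the gene's control mean, and log2 summed signal of choroid plexus and meningeal markers in the last panel; lines only join the arrays of a gene. Cox8b drops on iodine replicate 2, the array on which both marker sums are lowest, whereas Cox8a keeps its level.

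ATP synthase (complex V) was lower in iodine in 16 of 17 subunits, with a median of -0.061, from -0.20 to 0.0085. Both iodine arrays lay below the controls in 11 of them (64.7%, against 21.9% of all genes) and above in 0 (17.9% of all genes). These counts rest on the brightest probe of each gene. In Atp5a1, Atp5b, Atp5h and Atp5pb another kept probe was above 0. The F1 head, which makes ATP, had a median of -0.061 over 5 subunits. Its catalytic subunit Atp5b had 14.64 and 14.67 on the control arrays against 14.66 and 14.57 on the iodine arrays, with overlap. Its difference was -0.039, or 0.0041 with quantile normalization, and its other probes gave 0.094 and 0.17. Atp5a1, the alpha subunit, had 14.16 and 14.18 on the control arrays against 14.13 and 14.08 on the iodine arrays, a difference of -0.061, and its second probe gave 0.075.

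The 5 small membrane subunits around the proton channel had a median of -0.11 and the 4 of the peripheral stalk, which holds the head in place, -0.063. Atp5md, a small membrane subunit known from synthase dimers, had 13.50 and 13.46 on the control arrays against 13.25 and 13.32 on the iodine arrays. Its difference was -0.20 ± 0.074 (SE, unadjusted p = 0.053 by limma, adjusted p = 0.680), and its second probe gave -0.17. Atp5l stood at 13.80 and 13.87 on the control arrays against 13.72 and 13.72 on the iodine arrays. Atp5mpl had -0.11 ± 0.083 and the stalk subunit Atp5j -0.099 ± 0.072. In these 4 genes the groups did not overlap. The difference of Atp5mpl was -0.041 without iodine replicate 3 and -0.17 without iodine replicate 2. The c ring, the rotor that protons turn, has 3 genes for one protein, Atp5g1, Atp5g2 and Atp5g3, which differed by 0.0085, -0.018 and -0.068.

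Several probes of a gene served as a check within the array. Of the members, 17 had more than 1 kept probe, and in 7 of these (Atp5a1, Atp5b, Atp5h, Atp5pb, Ndufb5, Ndufv1 and Uqcr10) the probes differed in sign. In each of these 7 the brightest probe, which stood for the gene, was below 0 and a dimmer probe was above 0. The widest of these spreads was that of Atp5b, from -0.039 to 0.17. Probe sequences were not used here, and several members have processed pseudogenes that a probe might also detect.

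Other mitochondrial genes were compared from lists, none of whose members passed the adjusted threshold. The 13 genes that mitochondrial DNA encodes for these complexes matched 0 named probes and were not analysed here. The 46 assembly factors had a median of -0.030, with 30 lower and 16 higher. Timmdc1, for complex I, had 0.29 ± 0.11 (SE) and Lyrm7, for complex III, 0.27 ± 0.10. A second probe of Timmdc1 gave 0.11. Lyrm7 was dim, with log2 signals of 2.69 to 3.08 over the arrays (percentile 4.68 of brightness among the genes tested). Of 4 other tested genes of the chain, Ndufab1, an acyl carrier protein in complex I, differed by 0.11 ± 0.079 and Atpif1, the inhibitor of ATP synthase, by -0.090 ± 0.076. The others, Cyc1 of complex III and the cytochrome c gene Cycs, differed by 0.068 ± 0.082 and -0.039 ± 0.087. The 11 tested carrier, porin, creatine kinase and uncoupling genes had a median of -0.035, with the carriers Slc25a14 at -0.11 ± 0.093 and Slc25a4, the ADP/ATP carrier, at -0.072 ± 0.077.

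Genes of pyruvate dehydrogenase and the citric acid cycle, which supply the chain with electrons, were lower in iodine in 14 of 16 cases, with a median of -0.082. In 10 of 16 (62.5%) both iodine arrays lay below the controls, against 21.9% of all genes. Dld, the dihydrolipoamide dehydrogenase shared by both systems, had 9.31 and 9.22 on the control arrays against 8.94 and 8.93 on the iodine arrays, a difference of -0.33 ± 0.075 (SE, unadjusted p = 0.011 by limma, adjusted p = 0.668). Sucla2, a subunit of succinate-CoA ligase, had 9.88 and 9.86 on the control arrays against 9.68 and 9.63 on the iodine arrays, a difference of -0.21 ± 0.071. The 2 higher genes were Idh3b (0.070) and Suclg1 (0.002), named after their values were seen. These counts rest on the brightest probe of each gene. The kept probes of Cs ran from -0.089 to 0.061 and those of Suclg2 from -0.20 to 0.31. In the other genes of this list with several kept probes, the probes had the same sign.

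Regulators of mitochondrial biogenesis were lower in 11 of 12 cases (91.7%, against 54.4% of all genes), with a median of -0.14. In 9 of 12 (75%) they were lower without overlap, against 21.9% of all genes. These counts rest on the brightest probe of each gene. The kept probes of Gabpa ran from -0.17 to 0.19 and those of Gabpb1 from -0.16 to 0.073. In the other regulators with several kept probes, the probes had the same sign. Tfb1m, a mitochondrial rRNA methyltransferase, had 7.05 and 7.17 on the control arrays against 6.93 and 6.90 on the iodine arrays, a difference of -0.19 ± 0.080 (SE). Tfam packages mitochondrial DNA and takes part in its transcription. Its signals were 8.26 and 8.35 on the control arrays against 8.17 and 8.10 on the iodine arrays, a difference of -0.18 ± 0.080. The adjusted p by limma was 0.696 and 0.709. Nrf1 was the 1 regulator that was higher, at 0.049 ± 0.069. It was named after its values were seen. Members whose promoter held the NRF1 core had a median of -0.048 (17 genes, 16 lower), and those with a window and no such core -0.041 (50 genes, 38 lower).

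**Figure D4:**
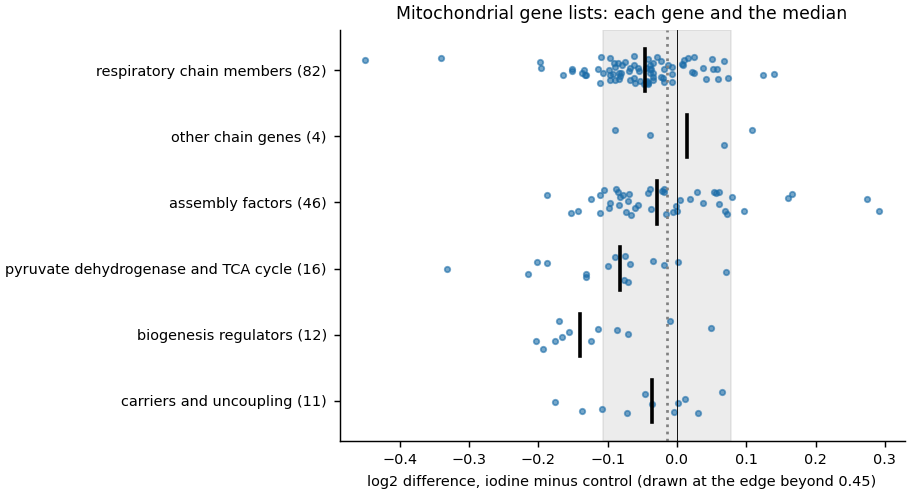
Log2 difference (20-fold iodine minus control) of the genes of each mitochondrial list, with black bars for medians; the grey band and dotted line are the quartiles and median of all genes. The medians run from -0.14 for biogenesis regulators to 0.0145 for the 4 other chain genes, with -0.046 for the 82 members.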

How the data were processed

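RNA of 4 samples was labelled with Cy3 and hybridised to 1-colour Agilent mouse arrays, per the labels' protocols. The authors deposited scanner output from Agilent Feature Extraction 12.1.1.1. From it the processed signal was taken, a deposited intensity that was background-subtracted and detrended within each array per the file headers and not normalized between arrays. Flags were taken as deposited.

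Outlier spots (47 to 70 per array) were left out and spots of a probe averaged. After log2 transformation, arrays were aligned at their 75th percentile, with the mean percentile added back. A probe was kept if it exceeded background clearly in 2 or more of the 4 arrays (38231 of 56605). The files hold no gene names, so transcript accessions without version were matched to RefSeq (GRCm38.p6), which named 32994 probes (58.3%). The array design's build is older, and no probe coordinates are given. The brightest kept probe stood for a gene. limma 3.58.1 (lmFit and eBayes, two-sided, R 4.3.3) was fitted over 16794 genes with Benjamini-Hochberg adjustment and a threshold of 0.05, and checked on simulated data. There it recovered 98% of the genes changed by 3 log2 units, 78% by 2, 58% by 1 and 0% by 0.5. Promoters were searched and plots drawn in Python 3.11.15 (pandas 2.3.3, matplotlib 3.10.9).

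Named members were the 4 of each complex with the smallest unadjusted p, a list of catalytic and isoform genes, and 2 genes of each other list. Others are named to complete a count, a pair of isoforms or a check of probes. The members and lists were chosen with earlier results of these data known. Alternatives covered background correction (normexp, offset 50, on the median spot intensity, since the mean intensity was not used here), normalization, centring, filters, the variance model, probes of a gene, the replicate number as a block, and leaving out each array. With 1 slide and 1 scan no such block was fitted. One member entered all counts and medians, but its own values are not reported here. The number of arrays limits the precision.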

Additional observations from a re-analysis of the deposited data

How the results depend on the processing

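The median difference of the members and of each complex was below 0 in every alternative run, and 0 members passed the adjusted threshold in any of them (smallest adjusted p = 0.309, without iodine replicate 3, for members). The members' median of -0.046 was -0.063 with normexp, where that of all genes was 0.0034. It was -0.065 to -0.038 when arrays were left out in turn (all genes -0.023 to -0.0019). With centring on the median of detected probes it was -0.071, but the median of all genes also moved, from -0.014 to -0.039. With that centring the medians of complexes I, III and IV were -0.063, -0.104 and -0.065. With normexp and quantile normalization those of complexes II and III were -0.0089 and -0.059, and that of all genes -0.0083. Leaving out arrays gave -0.0575 (without iodine replicate 2) to -0.022 (without iodine replicate 3) for complex I, -0.094 to -0.027 for complex II, -0.090 to -0.064 for complex III and -0.079 to -0.022 for complex IV. For complex V it gave -0.086 (without iodine replicate 2) to -0.044 (without iodine replicate 3). The count of members with an unadjusted p under 0.05 by limma was 1 of 82 in the report (7.35% of all genes) and 7 with normexp (7.94% of all genes). It was 3 with normexp and quantile normalization (8.68% of all genes) and 3 with a variance trend (7.5%). With the other centring and with no filter it was 2 (7.31% and 6.6% of all genes). With the replicate number as a block it was 0 (6.29% of all genes). The 43 of 82 members without overlap (39.9% of all genes) became 53 to 67 of 82 with 3 arrays, where overlap is rarer by construction. The 53 were found without control replicate 2 (66.6% of all genes) and the 67 without iodine replicate 2 (73.4% of all genes). What the replicate numbers stand for is not stated. Same-numbered deviations had a correlation of -0.024 over 16794 genes. With 2 arrays a group this is a single value, which cannot show whether same-numbered samples belong together. Among the 82 members, 47 kept their sign in all settings that give 1 value a gene. The cause of these shifts was not tested.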
